A study of Mus musculus with 12 samples.

Results

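The genes described here are a fixed list of 50 genes of mitosis, the mitotic spindle and the kinetochore, drawn up by gene name with earlier results of these data known, out of 24906 genes listed in each of 2 expression tables. They were followed in tumor organoids from the small intestine of Smad4KO BRAFV600E/+ mice, in which the study's Cre is driven from Villin and is active in the intestinal epithelium. All libraries came from organoids that lack Smad4, carry the activated Braf allele and were labelled as carrying pINDUCER-SMAD4, a lentivirus from which doxycycline (dox) switches on SMAD4. In the BME R1 matrix, a 3-dimensional gel, there were 2 dox libraries (lines 700 and 889), 3 untreated libraries (lines 682, 700 and 889) and 1 library of line 682 labelled as dox-treated and mock. On plastic there were 3 dox and 3 untreated libraries (lines 560, 700 and 889). Dox was given at 4 ug/mL for 48 h. Every library was 1 culture of 1 organoid line, and the number that opens each title was read as that line. The labels do not say whether lines came from separate mice, so that p-values measure the spread between these cultures.

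The mitotic genes form a program that cells switch on late in the cell cycle. Cyclin B with the kinase CDK1 starts mitosis, kinesins and microtubule binders build the spindle, and the kinetochore, a protein plate on each centromere, attaches chromosomes to it. A checkpoint holds back the anaphase-promoting complex until every kinetochore is attached, after which securin and cyclin B are destroyed and the chromatids part. Transcripts of these genes are scarce in cells that have left the cycle, and in the intestine they mark dividing crypt and tumor cells. The 50 members were grouped as 10 cyclin and kinase genes, 9 checkpoint and anaphase genes, 9 kinesins, 7 centromere and kinetochore genes, 4 genes of the chromosomal passenger complex, 7 spindle and cytokinesis genes and 4 chromatin and transcription genes.

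Values are FPKM, fragment counts divided by transcript length and library size, and changes are differences of log2(FPKM + 1), so that a change of -1 in a well-expressed gene leaves about 50% of the level. Read totals rebuilt from the tables ran from 14532308 to 16332920 in BME and from 17033669 to 21079280 on plastic. The re-expressed gene was higher in every dox library than in its untreated partner: Smad4 stood at 1.54, 2.99 and 4.76 FPKM in the untreated plastic libraries of lines 560, 700 and 889 and at 73.6, 18.1 and 48.9 FPKM in their dox partners, and in BME it was at 17.2 against 6.53 FPKM (dox against untreated) in line 700 and at 27.3 against 6.23 in line 889. In the library labelled mock it was 10.3, against 8.88 FPKM in the untreated library of line 682, and the study's count of 4 vehicle and 2 dox libraries places that library among the controls. The defining markers of the labelled epithelium were abundant: 8 intestinal epithelial markers summed to between 3892 and 9520 FPKM in BME and between 11665 and 17185 FPKM on plastic. The epithelial sum was higher in both BME dox libraries, at 7511 to 9520 FPKM, than in the 4 controls, at 3892 to 4886 FPKM, and its part in the BME changes was not tested. Fibroblast, immune and endothelial lists summed to at most 39.3 FPKM in any library.

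In 4 of the 5 dox pairs most mitotic genes were lower with dox, and in the remaining pair they were close to their untreated level. Each pair sets 1 dox library against the untreated library of the same line and has no replicate of its own. On plastic, the median change of the 50 members was -0.48 in line 560, -1.19 in line 700 and -1.35 in line 889. In BME it was -1.01 in line 700 and -0.04 in line 889. The library labelled mock differed from its untreated partner by a median of 0.03. Over all genes tested the median was close to 0 in every pair.

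The counts show the same split. Lower by more than 0.5 with dox were 23 of 50 members in line 560 on plastic, where 21.9% of all 12333 genes tested were, 47 in line 700, against 12.9% of all genes, and 46 in line 889, against 16.1%. In BME, 47 members were lower by more than 0.5 in line 700, against 7.58% of the 12996 genes tested, but 1 was in line 889, against 5.42%. In the mock pair no member was lower by that much, against 4.74% of all genes. Members higher by more than 0.5 were few: 3 in line 560 (24.3% of all genes), none in line 700 on plastic (12.5%), 1 in line 889 on plastic (18.3%), none in BME lines 700 (6.7%) and 889 (6.86%), and 1 in the mock pair (5.65%). At this cut of 0.5, the share of members that were lower was under that of all genes in the BME pair of line 889 and in the mock pair. With no cut, 62% of members were below 0 in the BME pair of line 889, against 50.6% of all genes. In bulk RNA, fewer dividing cells and less of each transcript per cell cannot be told apart.

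**Figure D1:**
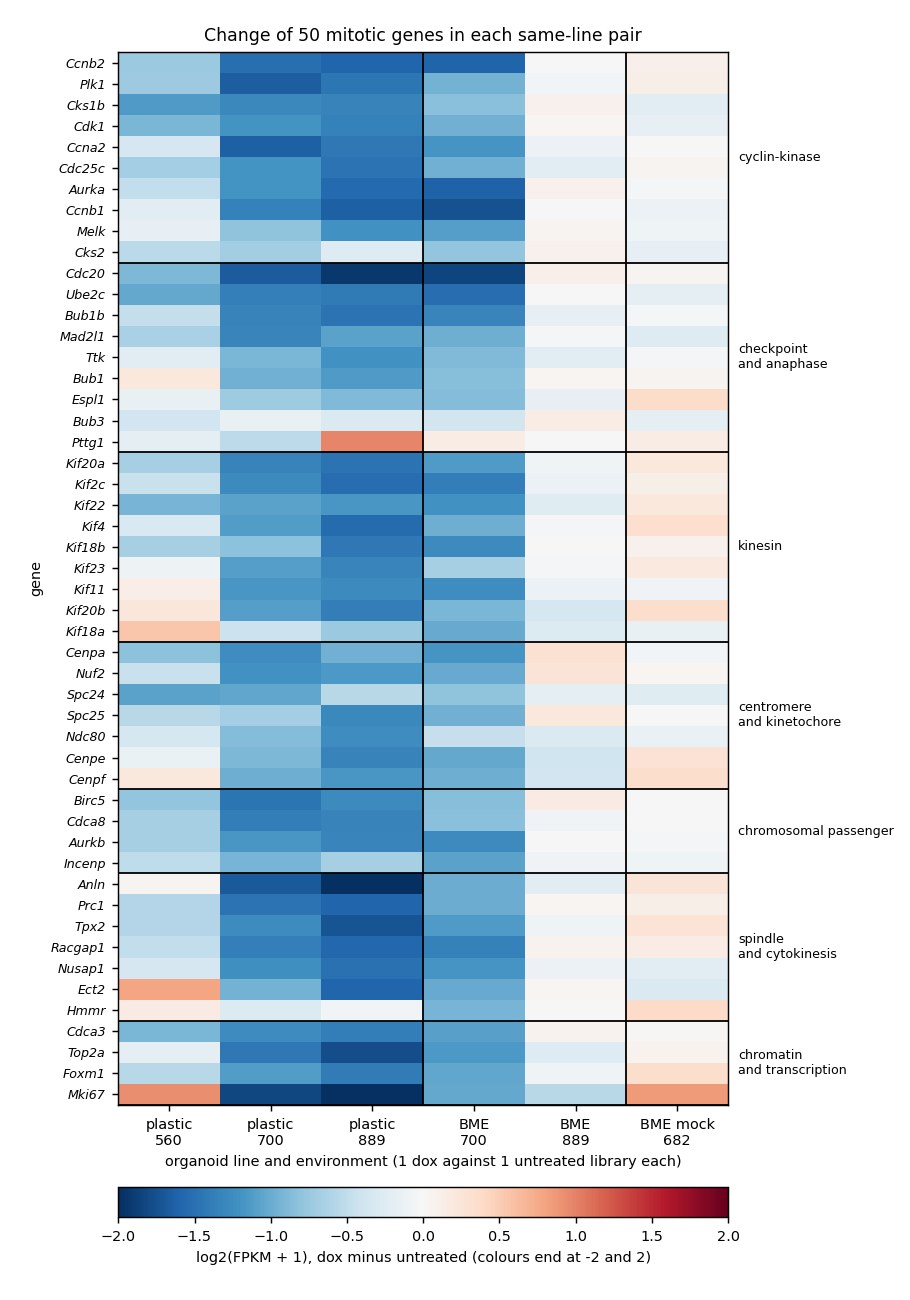
Change in log2(FPKM + 1), dox minus untreated, of each of the 50 genes (rows, by role) in the 6 same-line pairs (columns), blue for lower and red for higher with dox. Lines 700 and 889 on plastic and line 700 in BME are blue in nearly every row, line 889 in BME and the mock pair of line 682 are pale, and Mki67, Ect2 and Kif18a are red in line 560.

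The share of all rebuilt reads assigned to the 50 genes gives the same picture without a log scale. On plastic it went from 0.226% to 0.179% in line 560, from 0.166% to 0.0592% in line 700 and from 0.222% to 0.0772% in line 889. In BME it went from 0.236% to 0.1004% in line 700 and from 0.361% to 0.329% in line 889, while the mock library stood at 0.345% and its untreated partner at 0.312%.

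Across the 3 pairs on plastic, limma gave the 50 members a median change of -1.01, with 49 of 50 below 0, where 48.9% of all genes were below 0. None of the 50 passed an adjusted p of 0.05 with a change over 1, a bar that 0.0324% of all genes passed in either direction, and the lowest adjusted p among members was 0.162. At an unadjusted p under 0.05, 25 of 50 members were lower and none was higher, against 3.73% of all genes lower. Blocking on the organoid line gave 39 of 50, against 6.05% of all genes, and still no member passed the adjusted threshold. In 20 members every dox library was below every untreated library, against 7.26% of all genes, and 40 members were lower in each of the 3 pairs, against 18.7%. The count at an unadjusted p under 0.05 ran from 10 to 44 when 1 library was left out: it was 44 without the dox library of line 560 (4.53% of all genes in that fit), 14 without the untreated library of line 560 (4.95%), 10 without the dox library of line 700 (2.92%) or that of line 889 (1.8%), and 12 without the untreated library of line 889 (2.12%). The dox library of line 889 also held 38.7 FPKM of Cd68, from the list of 6 immune markers, against 2.70 FPKM in its partner. That list summed to at most 39.3 FPKM on plastic, and its other tested gene changed by -0.34 in this pair. The part of Cd68 in the result was not tested.

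**Figure D2:**
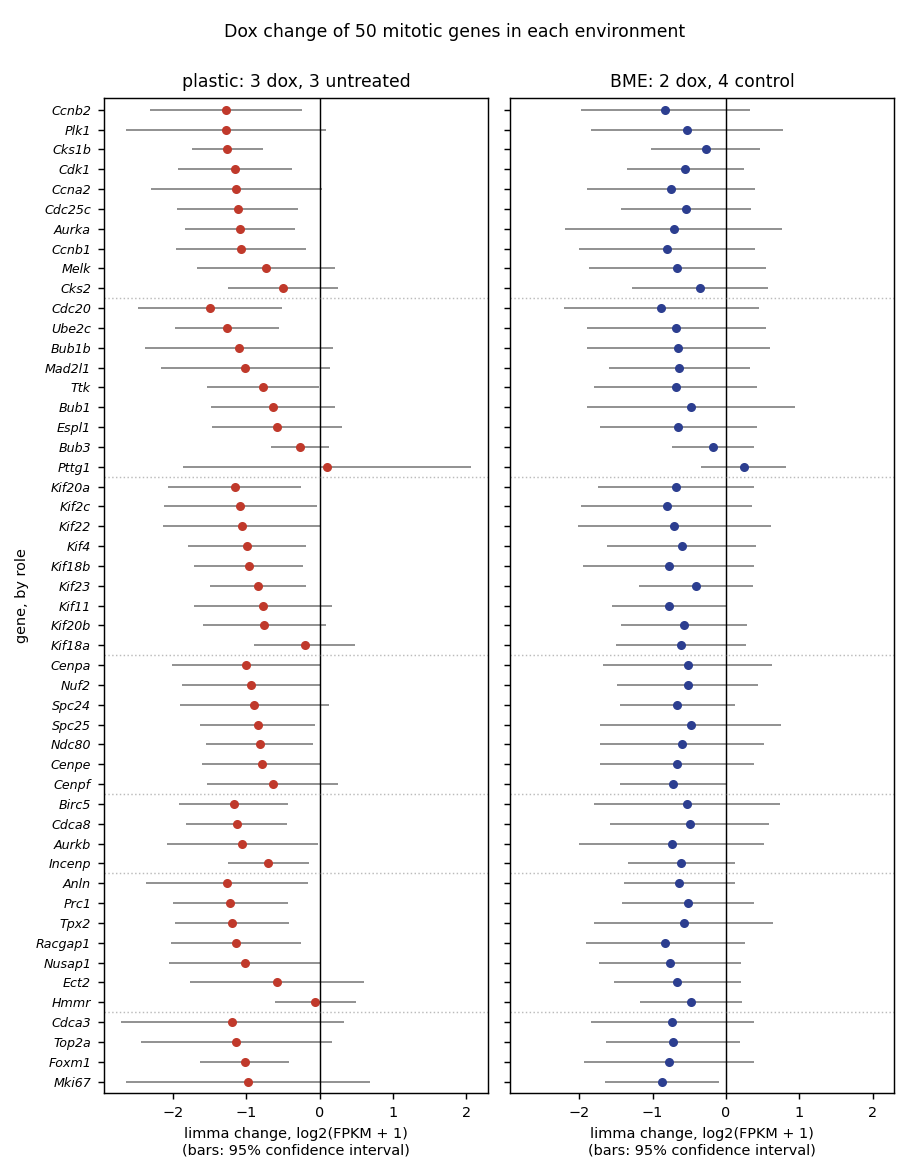
limma change in log2(FPKM + 1) of each gene with dox on plastic (left, 3 dox against 3 untreated libraries) and in BME (right, 2 dox against 4 control libraries). Points are changes, bars are 95% confidence intervals, and dotted lines part the roles. Points lie below 0 for 49 of 50 genes in each environment, and most BME intervals cross 0.

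Beside the role counts that follow, 3.73% of all genes were lower on plastic at an unadjusted p under 0.05, or 6.05% when blocked. Among the cyclin and kinase genes, all 10 had a change below 0 on plastic, with a median of -1.13 and 6 at an unadjusted p under 0.05, or 10 when blocked by line. Cks1b and Cks2 encode the small CDK-binding subunits and had the highest FPKM of this role. Cks1b (chromosome 3, 89219394 to 89222305 on the minus strand, build NCBIM37) stood at 89.6, 79.3 and 106 FPKM in the untreated plastic libraries of lines 560, 700 and 889 and at 40.2, 31.7 and 41.2 FPKM with dox. Its 3 dox libraries lay close together and all below the untreated ones, with a limma change of -1.26 (SE 0.20, unadjusted p = 0.000578, adjusted p = 0.162), the lowest p of any member. Cks2 read 69.2, 43.0 and 58.8 FPKM untreated and 47.2, 26.2 and 48.9 FPKM with dox in the same order of lines. The groups overlapped and the change was -0.50 (SE 0.31, unadjusted p = 0.156, adjusted p = 0.739). Blocked by line, its unadjusted p was 0.0474.

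Plk1 is the polo-like kinase that drives entry into mitosis and spindle assembly. It stood at 63.6, 28.4 and 35.8 FPKM untreated and at 38.0, 8.40 and 12.4 FPKM with dox on plastic. Each line was lower with dox, but the dox library of line 560 was above the untreated libraries of the other lines, and the change was -1.27 (SE 0.57, unadjusted p = 0.0624, adjusted p = 0.62). Ccnb2, a B-type cyclin, read 32.2, 18.7 and 24.6 FPKM untreated and 18.9, 5.95 and 7.55 FPKM with dox, a change of -1.28 (SE 0.43, unadjusted p = 0.0224, adjusted p = 0.541). Blocked by line, the unadjusted p was 0.00284 for Plk1 and 0.00272 for Ccnb2, and neither passed the adjusted threshold.

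In BME the cyclin and kinase genes were lower in line 700 and near their untreated level in line 889. From here on, BME values of a line are given as dox against untreated. Ccnb2 read 12.5 against 40.1 FPKM in line 700 and 48.7 against 48.7 FPKM in line 889, with 47.3 FPKM in the mock library and 44.1 FPKM in its partner. Plk1 read 19.6 against 38.6 FPKM in line 700 and 76.4 against 79.2 FPKM in line 889. The 10 genes of this role had a median change of -1.03 in line 700 and of 0.02 in line 889, and 6 of 10 were below 0 in the mock pair.

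**Figure D3:**
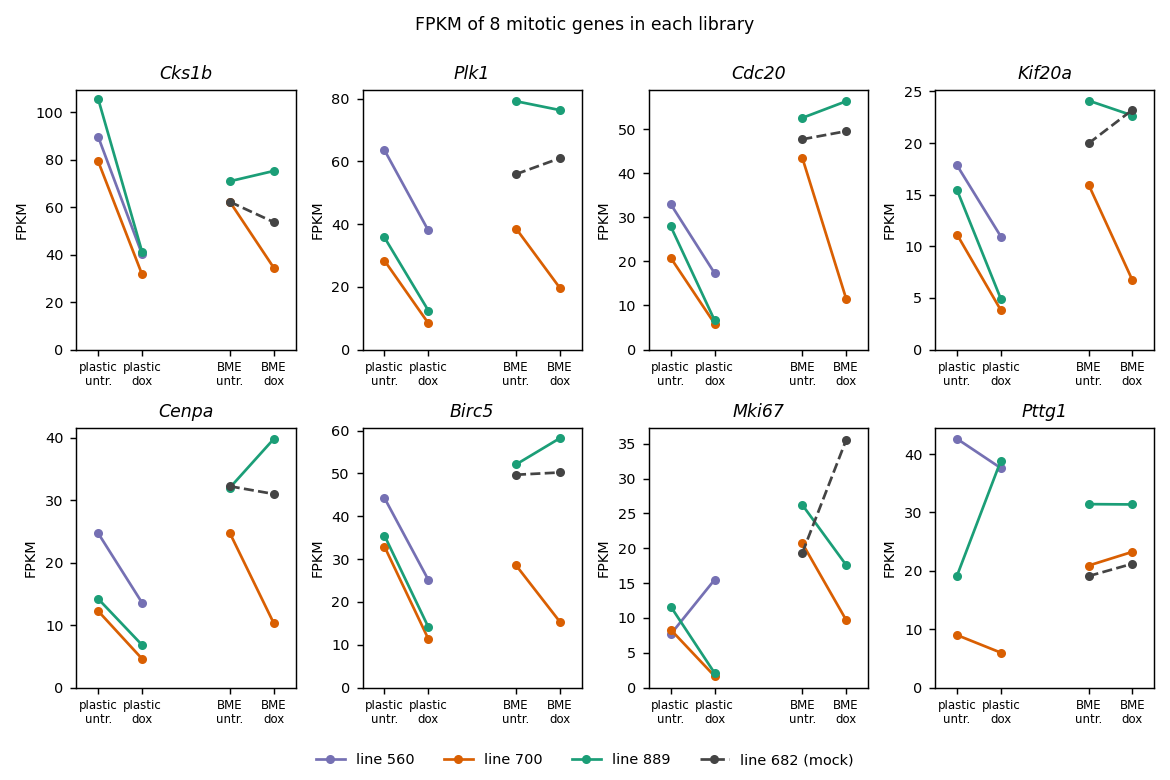
FPKM of 8 genes in every library, lines joining the untreated (untr.) and dox library of one organoid line; the dashed line is line 682, whose dox library is labelled mock. The 2 tables were normalized separately, so slopes and not heights are compared between plastic and BME. In line 889 (green) 6 of the 8 genes are lower with dox on plastic and near their untreated level or higher in BME, Mki67 is lower in both, and Pttg1 is higher on plastic.

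Of the 9 checkpoint and anaphase genes, 8 were below 0 on plastic, with a median of -0.78 and 3 at an unadjusted p under 0.05, or 5 when blocked by line. Cdc20, the activator of the anaphase-promoting complex, had the largest change of the 50 members: 33.0, 20.8 and 28.0 FPKM untreated against 17.3, 5.89 and 6.63 FPKM with dox. No dox library reached an untreated one, and the change was -1.49 (SE 0.41, unadjusted p = 0.00925, adjusted p = 0.435). Ube2c is the ubiquitin-conjugating enzyme that works with the same complex. It was the most abundant of the checkpoint and anaphase genes, at 150.4, 103 and 117 FPKM untreated and 73.9, 39.2 and 43.3 FPKM with dox on plastic, again without overlap, with a limma change of -1.27 (SE 0.30, unadjusted p = 0.00416, adjusted p = 0.342). In BME, Cdc20 read 11.5 against 43.5 FPKM in line 700 and 56.4 against 52.6 FPKM in line 889, and Ube2c read 49.0 against 143 FPKM in line 700 and 192 against 193 FPKM in line 889.

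A pair of genes in this role stood apart from the rest on plastic. Bub3, a checkpoint protein that also works outside mitosis, read 64.7, 56.2 and 62.9 FPKM untreated and 49.2, 50.8 and 51.4 FPKM with dox on plastic. Its groups did not overlap but lay close together, and the change was -0.27 (SE 0.16, unadjusted p = 0.147, adjusted p = 0.732). Pttg1 encodes securin, the inhibitor of separase. It stood at 42.6, 8.99 and 19.2 FPKM untreated and at 37.6, 5.97 and 38.9 FPKM with dox, lower in lines 560 and 700 and higher in line 889. Its change on plastic was 0.10 (SE 0.82, unadjusted p = 0.91, adjusted p = 0.987), with a 95% interval from -1.86 to 2.06, the widest of any member, and its sign turned when the dox library of line 560 or of line 889 or the untreated library of line 700 was left out. In BME, Pttg1 read 23.3 against 20.9 FPKM in line 700 and 31.4 against 31.4 FPKM in line 889, so it was the one member that was not lower with dox in the BME pair of line 700. Its rebuilt reads rest on a short transcript of an implied 633 bases.

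The 9 kinesins, the motors that sort microtubules and move chromosomes, were all below 0 on plastic, with a median of -0.97 and 5 at an unadjusted p under 0.05, or 6 when blocked by line. Kif20a, a motor of the central spindle, read 17.8, 11.1 and 15.5 FPKM untreated and 10.9, 3.81 and 4.90 FPKM with dox, without overlap, a change of -1.16 (SE 0.38, unadjusted p = 0.0202, adjusted p = 0.528). Kif23, the motor of centralspindlin, read 10.7, 16.0 and 14.9 FPKM and 9.89, 6.88 and 5.38 FPKM, with a limma change of -0.84 (SE 0.27, unadjusted p = 0.0193, adjusted p = 0.525). In line 560 the 2 Kif23 values were nearly equal, while in lines 700 and 889 dox libraries stood well under untreated ones.

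Kif2c, which takes microtubules apart at the centromere, read 7.75, 4.56 and 6.27 FPKM untreated and 5.44, 1.29 and 1.53 FPKM with dox, a change of -1.08 (SE 0.44, unadjusted p = 0.0443, adjusted p = 0.589). Kif18a, which shortens microtubules at the kinetochore, was the least abundant kinesin and the one with the smallest change on plastic: 0.880, 1.48 and 1.84 FPKM untreated and 1.75, 0.850 and 0.706 FPKM with dox. It was higher with dox in line 560 and lower in lines 700 and 889, with a limma change of -0.20 (SE 0.29, unadjusted p = 0.502, adjusted p = 0.9). In BME the kinesins had a median change of -1.14 in line 700, -0.12 in line 889 and 0.20 in the mock pair. Kif2c read 2.28 against 7.51 FPKM in line 700 and 10.5 against 11.6 FPKM in line 889, and Kif20a 6.70 against 16.0 FPKM and 22.7 against 24.1 FPKM.

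All 7 centromere and kinetochore genes were below 0 on plastic, with a median of -0.84 and 2 at an unadjusted p under 0.05, or 6 when blocked by line. Cenpa is the histone H3 variant that marks centromeres. It stood at 24.7, 12.2 and 14.2 FPKM untreated and 13.6, 4.60 and 6.81 FPKM with dox, lower in each line, with a limma change of -1.01 (SE 0.42, unadjusted p = 0.0504, adjusted p = 0.603). Nuf2 and Spc25 belong to the NDC80 complex, which grips the microtubule end. Nuf2 read 6.54, 3.97 and 4.95 FPKM untreated and 4.54, 1.15 and 1.69 FPKM with dox, a change of -0.93 (SE 0.39, unadjusted p = 0.0507, adjusted p = 0.604). Spc25 read 11.6, 6.64 and 11.1 FPKM and 7.58, 3.76 and 3.93 FPKM, a change of -0.84 (SE 0.33, unadjusted p = 0.0387, adjusted p = 0.583). The same direction held in each of the 3 lines for both genes. Blocked by line, the unadjusted p was 0.00318 for Cenpa and 0.0108 for Nuf2, and neither passed the adjusted threshold.

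Cenpf, a large kinetochore protein whose implied transcript is the longest of the members, read 1.94, 1.79 and 2.61 FPKM untreated and 2.41, 0.421 and 0.606 FPKM with dox on plastic. It was higher with dox in line 560 and lower in the other lines, with a limma change of -0.64 (SE 0.37, unadjusted p = 0.13, adjusted p = 0.712). In BME, Cenpf was among the 3 members whose dox libraries both lay under all 4 controls: 1.55 against 4.04 FPKM in line 700, 4.00 against 5.55 FPKM in line 889, and 5.76 and 4.31 FPKM in the mock and untreated libraries of line 682. The other genes named here were not lower in line 889. Cenpa read 39.7 against 32.0 FPKM, Nuf2 9.72 against 7.98 FPKM and Spc25 19.1 against 16.3 FPKM there. In line 700 the same 3 genes read 10.3 against 24.7, 2.87 against 6.79 and 4.45 against 9.67 FPKM.

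The chromosomal passenger complex corrects faulty attachments and then moves to the midzone. All 4 members were lower on plastic at an unadjusted p under 0.05, with a median of -1.09 and adjusted p of 0.396 or more. Birc5 (survivin) read 44.3, 32.9 and 35.5 FPKM untreated and 25.1, 11.4 and 14.1 FPKM with dox, without overlap, a change of -1.17 (SE 0.31, unadjusted p = 0.00792, adjusted p = 0.417). Cdca8 (borealin) read 24.7, 20.2 and 24.5 FPKM and 15.1, 7.11 and 9.10 FPKM, also without overlap, with a limma change of -1.13 (SE 0.29, unadjusted p = 0.00638, adjusted p = 0.396). The scaffold Incenp differed less, at 27.9, 24.4 and 22.0 FPKM untreated and 19.5, 12.3 and 13.4 FPKM with dox, with a limma change of -0.70 (SE 0.23, unadjusted p = 0.0203, adjusted p = 0.528). Aurkb, the kinase of the complex, read 18.5, 9.80 and 11.4 FPKM and 11.3, 3.81 and 4.00 FPKM, with a limma change of -1.05 (SE 0.43, unadjusted p = 0.0471, adjusted p = 0.599), and the dox library of line 560 was above the untreated library of line 700.

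In BME all 4 were lower in line 700 and none moved past 0.5 in line 889. Birc5 read 15.3 against 28.5 FPKM in line 700 and 58.2 against 52.1 FPKM in line 889, Aurkb 7.22 against 18.8 FPKM and 30.7 against 30.6 FPKM, Incenp 14.1 against 30.5 FPKM and 31.9 against 33.6 FPKM, and Cdca8 11.2 against 20.8 FPKM and 35.3 against 37.2 FPKM. The untreated BME library of line 700 was itself low in Birc5, at 28.5 FPKM, against 49.7, 52.1 and 50.2 FPKM in the other 3 controls.

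Among the 7 spindle and cytokinesis genes the median change on plastic was -1.14, with 4 at an unadjusted p under 0.05, or 5 when blocked by line. Prc1, which bundles midzone microtubules, read 24.1, 20.04 and 29.3 FPKM untreated and 15.7, 6.55 and 9.15 FPKM with dox, without overlap, a change of -1.22 (SE 0.33, unadjusted p = 0.00844, adjusted p = 0.425). Racgap1, part of centralspindlin, read 19.2, 14.0 and 20.1 FPKM and 13.4, 4.85 and 6.12 FPKM, also without overlap, with a limma change of -1.14 (SE 0.37, unadjusted p = 0.019, adjusted p = 0.522). Anln (anillin), a scaffold of the contractile ring, read 6.48, 17.3 and 24.8 FPKM untreated and 6.81, 4.69 and 4.72 FPKM with dox. Its lines differed: the change was 0.06 in line 560, -1.69 in line 700 and -2.17 in line 889, the largest change of any member in any pair, and limma gave -1.26 (SE 0.46, unadjusted p = 0.0307, adjusted p = 0.567).

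Hmmr, a spindle protein that also binds hyaluronan, was the member of this role with the smallest change on plastic. It read 7.76, 6.97 and 8.66 FPKM untreated and 8.85, 5.57 and 8.25 FPKM with dox, with a limma change of -0.06 (SE 0.23, unadjusted p = 0.811, adjusted p = 0.973) and a 95% interval from -0.61 to 0.49. In BME the same gene read 6.34 against 12.9 FPKM in line 700 and 13.6 against 13.6 FPKM in line 889, with 15.7 FPKM in the mock library against 11.8 FPKM in its partner. Prc1 read 10.2 against 21.3 FPKM and 28.5 against 27.8 FPKM, Racgap1 9.40 against 25.4 FPKM and 32.2 against 30.6 FPKM, and Anln 4.69 against 10.4 FPKM and 11.2 against 13.1 FPKM in these 2 lines.

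The 4 chromatin and transcription genes had a median change of -1.08 on plastic, with 1 at an unadjusted p under 0.05, or 3 when blocked by line. Top2a, the topoisomerase that untangles chromatids, read 25.7, 14.9 and 22.0 FPKM untreated and 22.3, 4.90 and 5.74 FPKM with dox, a change of -1.14 (SE 0.54, unadjusted p = 0.0779, adjusted p = 0.644). Cdca3, a mitotic entry factor, read 35.7, 10.6 and 15.8 FPKM and 18.5, 3.82 and 5.42 FPKM, with a limma change of -1.19 (SE 0.63, unadjusted p = 0.105, adjusted p = 0.672). For Cdca3 the dox library of line 560 was above the untreated libraries of lines 700 and 889, and blocked by line its unadjusted p was 0.00161, with 0.0192 for Top2a.

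Mki67, the proliferation marker Ki-67 that coats mitotic chromosomes, behaved differently from line to line. It read 7.65, 8.31 and 11.6 FPKM untreated and 15.5, 1.64 and 2.08 FPKM with dox on plastic. The change was 0.93 in line 560, -1.82 in line 700 and -2.04 in line 889, with a limma change of -0.98 (SE 0.69, unadjusted p = 0.205, adjusted p = 0.779). In line 560, where changes rose with transcript length as described below, the change of Mki67 was at most 0.26 after centring by length. In BME it was the only member at an unadjusted p under 0.05 without the block: 9.68 against 20.7 FPKM in line 700 and 17.6 against 26.2 FPKM in line 889, both dox libraries under all controls, with a limma change of -0.87 (SE 0.32, unadjusted p = 0.0339, adjusted p = 0.959). Blocked by line, its unadjusted p in BME was 0.0529. It was also the only member past 0.5 in the mock pair, at 35.5 FPKM in the mock library against 19.3 FPKM untreated, a change of 0.85.

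Over all 50 members in BME, limma gave a median change of -0.65, with 49 of 50 below 0, against 51% of all genes. None was called at an adjusted p of 0.05 and a change over 1, against 0.0231% of all genes, and the lowest adjusted p among members was 0.959. One member was lower at an unadjusted p under 0.05 (Mki67), against 1.47% of all genes. When blocked by line 10 members were, against 3.03%, among them Top2a, Cenpf, Kif18a and Anln but not Mki67. Every dox library was below every control library in 3 members (Cenpf, Kif11 and Mki67, of which Kif11 was named after its values were seen), against 5.83% of all genes, and 30 members were lower in both dox pairs, against 29.5%. The counts at an unadjusted p without the block and of groups that do not overlap lie near the background.

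The direction in BME rested on 1 line. Without the dox library of line 700, the median change of the 50 members was 0.12 and 10 of 50 were below 0. Without the dox library of line 889 it was -1.40, with 49 of 50 lower at an unadjusted p under 0.05, against 4.62% of all genes in that fit, and a lowest adjusted p of 0.0959. With both libraries of line 700 left out the median was 0.015, and with both libraries of line 889 left out it was -1.33. Cdc20 was the clearest single case, with a change of -1.83 in line 700 and of 0.10 in line 889. A BME pair of line 560 was not among these libraries, so that line is known on plastic only.

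The difference between environments was not resolved. The change on plastic minus the change in BME had a median of -0.33 over the 50 members, with 44 of 50 below 0, against 48.6% of all 11977 genes tested in both tables. At an unadjusted p under 0.05, 1 member was more negative on plastic (Cks1b, difference -0.98, SE 0.37, unadjusted p = 0.0239, adjusted p = 1.00 in limma), against 1.23% of all genes, and none was called, as 0% of all genes were. For Cdc20 the difference was -0.61 with an SE of 0.74, and for Plk1 -0.74 with an SE of 0.86. The median became 0.47 without the BME dox library of line 889 and -1.15, with 18 members at an unadjusted p under 0.05 (1.72% of all genes in that fit), without that of line 700. With lines 700 and 889 only, which have pairs in both environments, it was -0.67, with 47 of 50 below 0. The 2 environments share lines 700 and 889 but no library.

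The pair of line 560 on plastic carried a pattern with transcript length that the members shared with all genes. Across all 12333 genes, the change in this pair had a Spearman correlation of 0.54 with the implied transcript length, and across the 50 members of 0.72, both as descriptions within 2 libraries. All tested genes had a median change of -0.44 among the shortest transcripts, -0.04 among the middle ones and 0.44 among the longest, in 3 groups of equal size. The members lay below this course at each length: -0.74 for the 15 short members, -0.44 for the 20 middle ones and 0.06 for the 15 long ones. Of the long members 7 of 15 were below 0, while all 15 short members were. The members that were higher by more than 0.5 in this pair, Mki67, Ect2 and Kif18a (Ect2 was named after its values were seen), have implied transcripts of 9985, 3900 and 3328 bases. Centring each library within groups of genes of like transcript length left the median of this pair at -0.43, with 45 members below 0. After it 1 member was higher by more than 0.5, against 19.6% of all genes.

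A weaker course of the same kind was present in the mock pair, with a correlation of 0.31 over all genes and 0.54 over the members, and an opposite one in BME line 889, at -0.18 and -0.57. In line 889 on plastic the correlation was -0.25 over all genes and -0.25 over the members, with medians of -1.33, -1.33 and -1.39 for short, middle and long members. In line 700 it was -0.09 over all genes and 0.07 over the members on plastic, and -0.08 and -0.08 in BME.

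**Figure D4:**
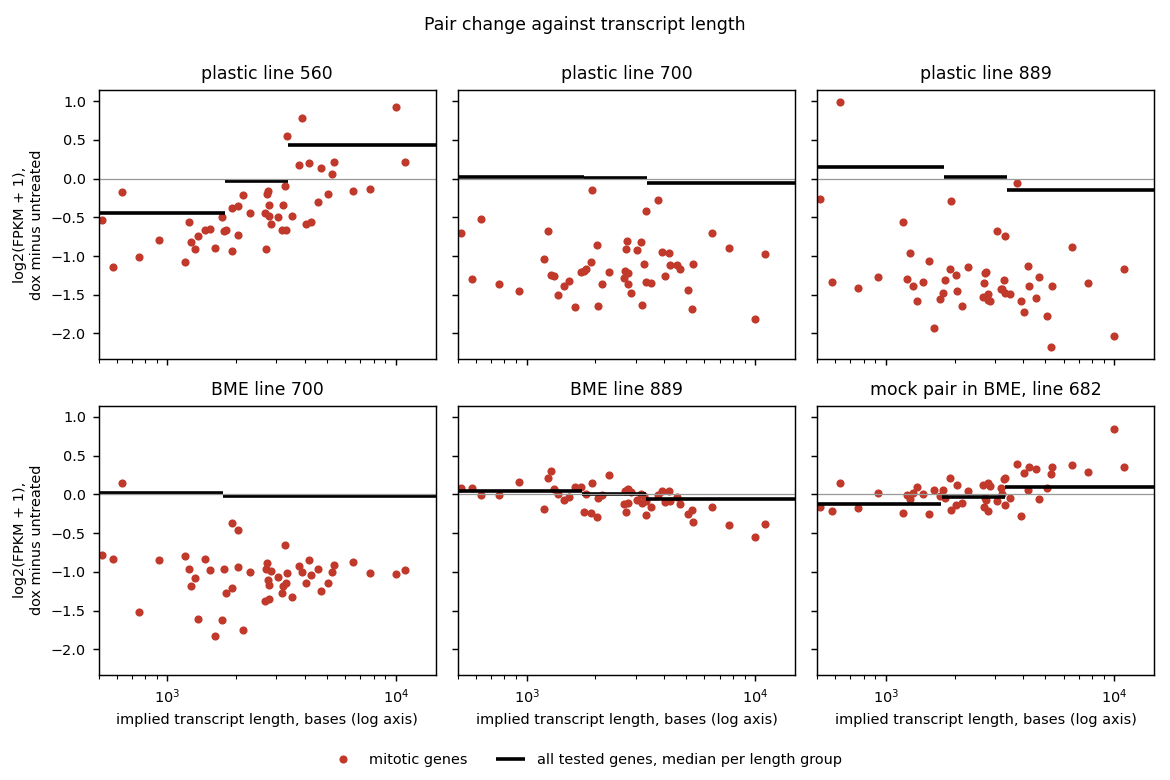
Change in log2(FPKM + 1) of each mitotic gene (red points) against its implied transcript length on a log axis, in each same-line pair; black bars are the medians of all tested genes in 3 length groups. The points slope upward in line 560 on plastic along with the black bars, lie near -1.2 at all lengths in line 700 on plastic, and near 0 in line 889 in BME.

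Promoters were examined for a pair of motifs that mitotic genes are known to share: the cell cycle homology region, TTTGAA, and the CCAAT box, bound by NF-Y. Both strands were searched (TTCAAA and ATTGG on the other strand), a match being 1 exact run of these letters, and matches of the different motifs can share no more than an end base. RefSeq windows of build GRCm38.p6, from 250 bases before to 50 bases after a start site, were matched by symbol for 42 of the 50 members. The windows not found were those of Ccna2, Aurkb, Incenp, Spc24, Cdc25c, Kif20a, Tpx2 and Foxm1. TTTGAA was in 31 of 42 members (73.8%), against 20.2% of all 27025 genes with a window and 14.1% of the 9645 among them tested on plastic. CCAAT was in 31 of 42 (73.8%), against 41.1% of all genes, and both motifs were in 27 of 42 (64.3%), against 8.97%.

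The 150 bases upstream of the start sites of 7 members are printed to set members with large changes beside members with small ones, with each TTTGAA and CCAAT match on either strand in capitals. The first 4, Cdc20 (chr4:118437344-118437493, minus strand), Ube2c (chr2:164769779-164769928, plus strand), Cks1b (chr3:89418292-89418441, minus strand) and Cdk1 (chr10:69352913-69353062, minus strand), had the largest changes on plastic among members with 1 window and a TTTGAA in the last 100 bases before the start. The other 3, Kif18a (chr2:109280588-109280737, plus strand), Hmmr (chr11:40733438-40733587, minus strand) and Pttg1 (chr11:43425982-43426131, minus strand), had the smallest changes among members with 1 window. All are written 5' to 3' on the gene's strand and end at the base before the start site.
Cdc20: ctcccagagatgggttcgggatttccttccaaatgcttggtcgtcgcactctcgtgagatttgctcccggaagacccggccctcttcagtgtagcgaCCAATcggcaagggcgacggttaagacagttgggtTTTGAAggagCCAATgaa
Ube2c: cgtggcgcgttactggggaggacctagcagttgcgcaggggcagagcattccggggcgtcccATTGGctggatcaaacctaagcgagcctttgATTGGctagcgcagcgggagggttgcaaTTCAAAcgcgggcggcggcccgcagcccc
Cks1b: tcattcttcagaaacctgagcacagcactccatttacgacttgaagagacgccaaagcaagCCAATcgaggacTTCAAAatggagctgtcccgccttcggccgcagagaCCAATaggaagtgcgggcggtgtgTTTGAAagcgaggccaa
Cdk1: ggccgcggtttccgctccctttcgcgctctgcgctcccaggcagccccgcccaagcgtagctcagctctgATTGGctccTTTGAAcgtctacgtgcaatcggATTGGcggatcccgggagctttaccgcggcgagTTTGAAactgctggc
Kif18a: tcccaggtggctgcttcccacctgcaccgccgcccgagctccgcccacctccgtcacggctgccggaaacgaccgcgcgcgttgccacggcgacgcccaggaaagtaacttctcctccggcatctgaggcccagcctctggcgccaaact
Hmmr: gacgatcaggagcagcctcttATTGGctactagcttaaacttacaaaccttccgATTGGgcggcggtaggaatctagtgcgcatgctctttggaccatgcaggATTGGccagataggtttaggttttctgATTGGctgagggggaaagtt
Pttg1: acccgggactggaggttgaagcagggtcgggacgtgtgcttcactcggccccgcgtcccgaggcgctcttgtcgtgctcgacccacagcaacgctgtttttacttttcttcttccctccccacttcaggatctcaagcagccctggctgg

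In these stretches Cdc20, Ube2c, Cks1b and Cdk1 each hold a TTTGAA match that begins at base -29 or nearer to the start site, and 2 CCAAT matches, with changes on plastic of -1.49, -1.27, -1.26 and -1.15. They were picked for holding TTTGAA upstream and the other 3 were not, so the contrast between the printed sets is partly fixed by that choice. Kif18a and Pttg1 hold neither motif, with changes of -0.20 and 0.10. Hmmr holds 4 CCAAT matches here and a TTTGAA match 9 bases after the start site, with a change of -0.06, and Birc5 holds neither motif in its window with a change of -1.17. Plk1 and Cdca3, with changes of -1.27 and -1.19, hold their TTTGAA match at base 31 after the start site and none upstream, and Anln, at -1.26, holds its matches at bases 22 and 29 after the start site and no CCAAT. Over the 42 members the median change on plastic was -1.06 for the 31 with TTTGAA and -0.79 for the 11 without. A match is a run of letters and not a measured binding site.

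**Figure D5:**
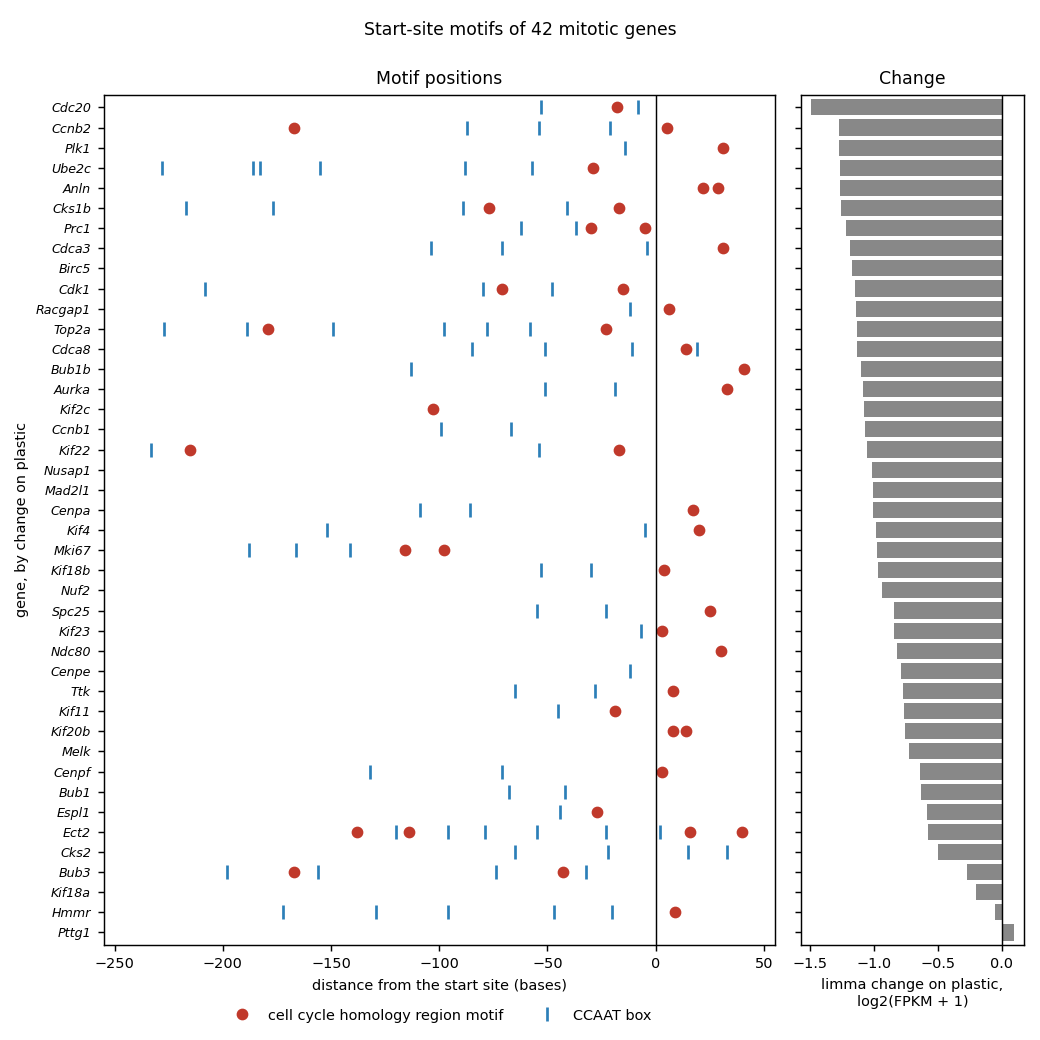
Positions of the cell cycle homology region motif (red points) and CCAAT box (blue ticks) on either strand, in bases from the start site, in every RefSeq window of 42 genes ordered by their limma change on plastic (grey bars, log2(FPKM + 1)). Red points crowd within 50 bases of the start site in most rows, and the rows of Birc5, Nusap1, Mad2l1, Nuf2, Melk, Kif18a and Pttg1 are empty.

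Other lists of the cell cycle were read beside the members, as counts and medians only. On plastic 48.9% of all genes were below 0 and 3.73% lower at an unadjusted p under 0.05, or 6.05% when blocked. Of 55 further kinetochore and spindle genes 53 were below 0 on plastic, with a median of -0.52 and 15 lower at an unadjusted p under 0.05, or 19 when blocked by line. The largest changes were in Dlgap5, a spindle protein, at -1.46 (SE 0.41, unadjusted p = 0.0102, adjusted p = 0.454), and in Pimreg, at -1.24 (SE 0.44, unadjusted p = 0.0272, adjusted p = 0.562). All 16 DNA replication markers were below 0, with a median of -0.69 and 5 at an unadjusted p under 0.05, or 12 when blocked by line. Among the 5 was Cdc6, the loader of the replicative helicase, at -0.91 (SE 0.23, unadjusted p = 0.00656, adjusted p = 0.396). Smaller medians were found for the 17 condensin and cohesin genes (-0.28, 10 below 0), the 15 genes of the anaphase-promoting complex (-0.12, 10 below 0) and the 16 MuvB and mitotic transcription genes (-0.06, 8 below 0). At an unadjusted p under 0.05 none, none and 1 of these were lower, or 3, 1 and 2 when blocked by line. Without the block these counts lie near the share of all genes. By pair the condensin and cohesin median was 0.50 in line 560, with 5 of 17 below 0. It was -0.20 in line 700 and -0.49 in line 889, with 15 and 16 below 0. Of 7 tested genes of CDK1 control 5 were below 0, with a median of -0.56, and 8 housekeeping genes had a median of -0.05. The housekeeping median differed by pair, at -0.36 (line 560), 0.09 (line 700) and 0.13 (line 889). For line 560, 3 of these 8 genes were lower by more than 0.5, and the median of the 50 members was -0.48.

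In BME 1.47% of all genes were lower at an unadjusted p under 0.05, or 3.03% when blocked by line. The 55 kinetochore and spindle genes had a median of -0.50 there, with 4 lower at that p, or 9 when blocked. The 16 replication markers had a median of -0.67, with 1, or none when blocked. By pair, these medians were -0.63 and -0.90 in line 700 and -0.048 and -0.036 in line 889. In the mock pair the replication markers had a median of -0.34, with 14 of 16 below 0. All 8 housekeeping genes were below 0 there too, with a median of -0.20. Their median was 0.035 for BME line 700 and 0.040 for BME line 889. Of the 7 CDK inhibitor genes, 2 were higher and 2 lower on plastic at an unadjusted p under 0.05. Of all 12333 genes, 562 were higher and 460 lower, and no CDK inhibitor gene was called. Cdkn1a, a p53 target that blocks CDKs, read 167, 197 and 143 FPKM untreated and 422, 704 and 804 FPKM with dox on plastic, a limma change of 1.88 (SE 0.30, unadjusted p = 0.000522, adjusted p = 0.157). Cdkn2d, an inhibitor of CDK4 and CDK6, read 7.66, 2.09 and 3.18 FPKM and 17.3, 38.7 and 29.1 FPKM, a limma change of 2.54 (SE 0.46, unadjusted p = 0.00106, adjusted p = 0.206). Cdkn2a, an inhibitor of CDK4 and CDK6 at the locus that also encodes ARF, read 121, 61.5 and 98.3 FPKM and 49.9, 28.3 and 51.2 FPKM, a limma change of -1.09 (SE 0.34, unadjusted p = 0.0169, adjusted p = 0.505). Its neighbour in the family, Cdkn2b, read 64.7, 67.0 and 97.5 FPKM and 44.0, 40.5 and 42.2 FPKM, a limma change of -0.82 (SE 0.22, unadjusted p = 0.00765, adjusted p = 0.415). Both were lower in all 6 pairs, with changes of -0.46 and -0.13 in BME line 889 and of -0.37 and -0.22 in the mock pair. Cdkn1a and Cdkn2d were higher in every pair, also in BME line 889, by 1.52 and 1.27, and in the mock pair, by 0.86 and 1.21, the pairs in which the mitotic genes had medians of -0.04 and 0.03.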

How the data were processed

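Transcripts of 12 organoid cultures were measured by RNA-Seq. Per the labels and the study's methods, the authors processed reads with kallisto and DESeq2 and named build mm9; versions are not given in the sources used here. They deposited 1 table of FPKM for BME and 1 for plastic, normalized separately. A comparison table deposited by the authors holds fold changes and p-values, which were not used, and a mean normalized count per gene (a signal over all libraries), which was used only to recover reads: 86.6 to 89.8% of low values then were whole numbers within 0.05 read. Implied transcript length, in bases, was the normalized reads of a gene over its FPKM, scaled by library size and averaged over both tables. Every per-sample column was mapped to a sample.

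Genes whose FPKM averaged 0.5 or more across a table (6 libraries) were tested with limma 3.58.1 in R 4.3.3 on log2(FPKM + 1), lmFit and eBayes with trend, two-sided, with Benjamini-Hochberg adjustment over all genes tested. A call needed an adjusted p under 0.05 and a change over 1. The pseudocount understates changes of low genes. All 50 members passed the filter in both tables. Same-line pairs were read with no test, counting changes past 0.5. Lines pair the libraries: deviations of same-line dox and untreated libraries correlated at 0.70 and 0.68 in BME and at 0.46, 0.61 and 0.25 on plastic, so counts at an unadjusted p for the members, roles and lists are also given blocked by line where the block moves a printed count. The fit was also run on simulated data with independent genes, no line effect and no length pattern. That run does not show how the fit behaves where these are present.

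Members, roles and lists were chosen with earlier results of these data known. Per role, the named genes are the 2 with the highest mean FPKM, the 2 with the largest and the 1 with the smallest change on plastic, and the 1 with the largest change in BME, 27 in all. Gene coordinates are from the GENCODE annotation of NCBIM37, and promoter sequences from RefSeq (GRCm38.p6). Depth is known from rebuilt reads only, and the number of libraries limits the precision. Figures and tables were made with Python 3.11.15 and pandas 2.3.3.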

Additional observations from a re-analysis of the deposited data

Results flagged for a closer look

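In 5 of the 50 genes, 1 of the 4 BME control libraries lay far from the other 3 on the log2(FPKM + 1) scale, and in all 5 it was the untreated library of line 700, the lowest of the 4. The gap to the next library was 0.921 of the whole range in Birc5, 0.862 in Kif18b, 0.851 in Cenpa, 0.846 in Melk and 0.831 in Ndc80, all past Dixon's 95% critical value for 4 libraries. Chance flags about 1 in 20 such groups, and the 50 genes share the same 4 libraries. It was the lowest of the 4 in 44 of the 50 genes, most of them with a smaller gap, and not in Ccnb1, Cks1b, Ube2c, Hmmr or Mki67, among others. This library is the untreated partner from which the changes of line 700 in BME were measured. Ccnb1, Kif18b, Melk and Ndc80 are outside the rule for named genes and were named after their values were seen. What set the level of this library was not tested.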

How the results depend on the processing

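Across the settings tried, no member was called in any fit. On plastic the median over the 50 members stayed below 0, and the count lower at an unadjusted p under 0.05, 25 as reported, was 39 with the replicate block (the organoid line), 46, 10 and 2 with both libraries of line 560, 700 or 889 left out, and 10 to 44 with 1 library left out. Of all 12333 genes, 460 were lower as reported and 746 with the block. With line 560, 700 or 889 left out 959, 256 and 115 were, and 222 to 610 with 1 library left out. In BME that count, 1 as reported, was 10 with the replicate block, 2 with upper quartile scaling, 0 with the mock library left out or counted with dox, and 0, 0 and 48 with both libraries of line 682, 700 or 889 left out. It ran from 0 to 49 with 1 library left out, and the BME median from -1.40 to 0.12, turning to 0.015 with both libraries of line 700 left out. For plastic minus BME the count, 1 as reported, was 2 with the replicate block or with lines 700 and 889 only and 0 after centring by length, and it ran from 0 to 18 with 1 library left out, the median from -1.15 to 0.47. Pair medians over the 50 members kept their sign under a pseudocount of 0.1, upper quartile scaling and length centring, but the cyclin and kinase median in BME line 889, 0.02 as reported, was -0.011 with upper quartile scaling. Pttg1 on plastic was -0.012 by limma-voom on rebuilt reads, and with 1 library left out it ran from -0.43 to 0.93, and Hmmr from -0.17 to 0.12. Of all 12996 genes in BME, 191 were lower at an unadjusted p under 0.05, or 394 with the block. With line 682 left out 57 were. Without line 700 or 889 in BME only 1 dox library was left, so the member counts of those fits rest on it. The causes of these shifts were not tested.

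In BME, 21 of the 27 named genes changed sign without the dox library of line 700, and their changes with 1 library left out ran as follows: Ccnb2 -1.76 to 0.11, Cks1b -0.83 to 0.27, Cks2 -1.05 to 0.35, Plk1 -1.49 to 0.42, Bub3 -0.55 to 0.19, Cdc20 -1.98 to 0.22, Ube2c -1.65 to 0.30, Kif20a -1.49 to 0.13, Kif23 -0.96 to 0.14, Kif2c -1.71 to 0.10, Kif18a -1.25 to 0.017, Cenpa -1.44 to 0.40, Nuf2 -1.26 to 0.21, Spc25 -1.42 to 0.46, Aurkb -1.71 to 0.23, Birc5 -1.46 to 0.40, Cdca8 -1.28 to 0.29, Prc1 -1.21 to 0.18, Hmmr -0.98 to 0.014, Racgap1 -1.66 to 0.011 and Cdca3 -1.55 to 0.092. Length centring, limma-voom and leaving out both libraries of a line were chosen after seeing the data.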

Other observations

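SMAD4 and 5 genes that respond to SMAD signalling (Id1, Id2, Id3, Smad6 and Smad7) were read beside the mitotic genes in each pair. On plastic the medians of the 50 mitotic genes were -0.48, -1.19 and -1.35 in lines 560, 700 and 889, and in BME they were -1.01 and -0.04 in lines 700 and 889. Id3, an inhibitor of basic helix-loop-helix factors, had changes of 3.57, 2.80 and 5.35 in the plastic pairs and of 4.19 and 3.01 in the BME pairs, in the same order of lines. Its relative Id1 had changes of 2.39, 1.81 and 2.98 on plastic and of 3.02 and 1.76 in BME. Id2 differed in sign: its change was 0.57, -0.68 and -1.39 on plastic and 0.88 and 0.70 in BME. Smad7, an inhibitory SMAD, had changes of 0.98, 1.31 and 1.18 on plastic and of 0.52 and 0.51 in BME, and Smad6, another, of 0.66, 0.31 and 1.58 and of 0.60 and -0.045. The change of Smad4 itself was 4.88, 2.26 and 3.12 on plastic and 1.28 and 1.97 in BME. In the mock pair the 6 genes had changes from -0.46 (Id1) to 0.41 (Id3). These are single pairs with no replicate of their own, and no relation across them was tested.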
